A study of Danio rerio with 6 samples.

Results

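The proteasome genes of zebrafish embryos were described by their translation efficiency, the abundance of ribosome footprints on a gene's mRNA relative to the abundance of that mRNA. Members were all gene symbols that begin with psma, psmb, psmc, psmd, psme, psmf or psmg followed by a digit, and 51 of the 21392 genes in the deposited table met this rule. By known role 9 were alpha-ring genes of the core, 7 beta-ring genes, 3 immune-type beta genes, 7 ATPases of the base, 3 other base subunits, 3 chaperones of base assembly, 9 lid subunits, 5 activators, 1 inhibitor and 3 chaperones of core assembly. The remaining symbol, psmc3ip, names a recombination factor that is called after its binding to Psmc3 and is not a proteasome subunit. It was kept in the count of 51 because the rule takes it, and left out of the base. The known subunit or assembly chaperone genes psmd2, psmg4, psmb11a, psmb11b, psmb12 and psmb13a are not among the 51 and were not analysed here. No psma7 is among the 51 or in the RefSeq annotation used for gene order, and the alpha4-type gene among the 51 is psma8.

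The embryos were either wild type, of the AB strain, or mutant for mycn, which encodes a Myc-family transcription factor, and both kinds were collected 72 h after fertilization. The labels name the strain of the mutants only as mycn mutant, and the sources used here give neither the allele nor the background of the mutants. Ribo-seq was done on 2 samples of each genotype, from whole embryos dissociated to single cells, and RNA-seq on 1 sample of each. The labels do not say whether replicates came from separate clutches, so a p-value reflects only how these particular samples spread, possibly for technical reasons. The ratios hold no mRNA or footprint levels, so the labelled source, embryonic cells, could not be checked against marker genes, nor the mutation against mycn mRNA. The translation efficiency of mycn itself was 0.446 and 0.302 in wild type against 0.429 and 0.342 in mutants, with overlapping genotypes.

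The proteasome is the protease that degrades proteins tagged with ubiquitin. Its core is a barrel of stacked rings, with outer rings of alpha subunits that gate the entry and inner rings of beta subunits that carry the active sites. A regulatory particle caps the barrel: its base holds a ring of ATPases that unfold substrates, and its lid removes ubiquitin. Other activators can take the place of the cap, dedicated chaperones assemble core and base, and immune cells exchange the active beta subunits for immune-type ones. Subunits of such a complex are needed in fixed proportions, and their mRNAs are known as a group that many cells translate in step with those proportions.

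A ratio tells nothing of its own depth, so repeated values served as a guide to precision. Where 2 genes of a library have equal values to 9 significant digits, both are taken as quotients of small integers. Such values made up 64.7% to 67.1% of those above 0 in a library. Among the proteasome genes 16 had no repeated value in any library, and 9 had one in all 4 libraries. The ratio of a gene's values in the 2 wild-type libraries was shared with another gene for 89.3% of 17601 tested genes, and in the mutant pair for 90.6%, against 13.5% to 14.5% for pairs across genotypes. Both libraries of a genotype thus appear to have been divided by the same mRNA measurement. The error of that measurement is not in the spread between replicates, and whether footprints or mRNA move a ratio cannot be told apart. In whole embryos a change in the share of a cell type and a change within cells cannot be told apart.

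Most proteasome genes had a translation efficiency below that of the typical gene, in both genotypes. Over the 48 members above 0 in every library, the median was 0.547 and 0.540 in wild type against 0.536 and 0.549 in mutants, whereas the median of all 17601 tested genes lay between 0.762 and 0.779. Of these 48, 32 were below the library median in all 4 libraries, against 27.3% of all tested genes, and 1 was above it in all 4. Among genes without repeated values, where ratios are more precise, 13 of 16 proteasome genes and 38.7% of 2626 genes were below in all 4. The members also stayed within a narrow band: the SD of their log2(value + 0.1) was 0.34 to 0.55 in a library, against 1.03 to 1.09 over all tested genes. For the 16 members without repeated values it was 0.35 to 0.43, against 1.38 to 1.41 over all such genes. Both wider SDs take in extreme genes, with maxima of 8898 to 16701 in a library. How far such genes widen them was not tested. Other large complexes, described below, had bands of similar or smaller width.

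**Figure D1:**
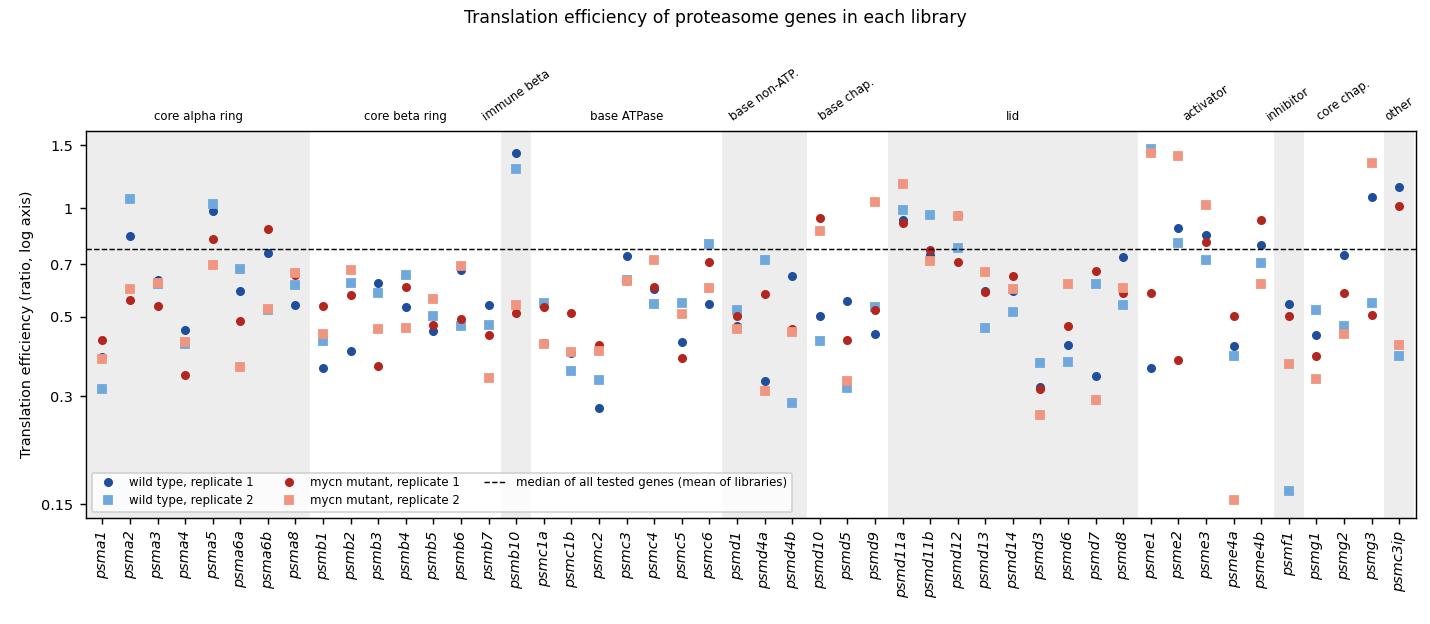
Translation efficiency (ratio, log axis) of the 48 proteasome genes above 0 in every library, ordered by role, with 1 point for each of the 4 libraries and a dashed line at the mean of the 4 library medians over all tested genes. Most points lie below the line, all 7 beta-ring genes in every library, while psmb10 is above it in both wild-type libraries (1.42 and 1.29) and below it in both mutant libraries (0.512 and 0.540).

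Among the alpha-ring genes, psma5 and psma2 had the highest ratios in wild type and psma1 the lowest. Translation efficiency of psma5 was 0.986 and 1.03 in wild type and 0.820 and 0.698 in mutants. That of psma2 was 0.839 and 1.06 against 0.557 and 0.596. For both genes each mutant library lay below each wild-type library, and psma2 went from the 65.4th to the 27.5th percentile of tested genes. The log2 fold was -0.37 (SE 0.196) for psma5 and -0.63 (SE 0.211) for psma2, and neither passed in limma (adjusted p = 0.558 and 0.410). The table's psma2 is an older symbol that may stand for either of the zebrafish copies now called psma2a and psma2b. At the low end, psma1 was at 0.387 and 0.315 in wild type and 0.430 and 0.381 in mutants, with overlapping genotypes. The alpha4-type subunit gene psma8 was at 0.540 and 0.613 against 0.651 and 0.660, so both mutant libraries were slightly higher (log2 fold 0.16, SE 0.187). The genotypes overlapped for psma3, at 0.630 and 0.617 against 0.537 and 0.620, and for psma4, which lay between 0.345 and 0.459 in every library. The copies of psma6 are described with the other duplicated genes.

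The 7 beta-ring genes all lay between 0.337 and 0.691 over the 4 libraries. Those with active sites, psmb5 (chymotrypsin-like), psmb6 (caspase-like) and psmb7 (trypsin-like), had wild-type means of 0.479 ± 0.0330, 0.573 ± 0.143 and 0.505 ± 0.0451 (SD, n = 2), and mutant means of 0.516 ± 0.0608, 0.592 ± 0.140 and 0.391 ± 0.0767. The genotypes overlapped for psmb5 and psmb6 and did not for psmb7, which was at 0.537 and 0.473 against 0.445 and 0.337. Of the structural subunits psmb3 had the highest mean in wild type, at 0.620 and 0.580. In wild-type replicate 2 alone, psmb4 (0.654) and psmb2 (0.618) were above it. In mutants psmb3 was at 0.364 and 0.462, both below wild type. In the other direction psmb1, the lowest of the ring, was at 0.359 and 0.428 in wild type and 0.535 and 0.446 in mutants. None of psmb3, psmb7 and psmb1 has a repeated value, and their log2 folds were -0.45 (SE 0.209), -0.31 (SE 0.225) and 0.26 (SE 0.215). None passed in limma (adjusted p = 0.511, 0.654 and 0.692). In these 3 of the 7 genes the genotypes did not overlap, 1 higher and 2 lower in mutants, without a call. Over all tested genes 23.1% were higher without overlap and 21.6% were lower.

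The immune-type beta genes encode subunits that replace the active ones in cells under interferon, and 1 of them, psmb10, had the largest absolute fold of the tested members. The translation efficiency of psmb10, the counterpart of psmb7, was 1.42 and 1.29 in wild type and 0.512 and 0.540 in mutants. It stood above all other core genes in both wild-type libraries and near the median of the core in both mutant ones. The log2 fold was -1.22 (SE 0.188), a ratio of 0.430 on the log2(value + 0.1) scale. The unadjusted limma p of 0.00270 was the smallest among the members. After adjustment over 17601 genes psmb10 did not pass (limma adjusted p = 0.262, and 0.185 to 0.540 over the alternatives). Its values were repeated in all 4 libraries, being shared with 6 to 15 other genes, so each is taken as a quotient of small integers.

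The other immune-type genes, psmb8a (the counterpart of psmb5) and psmb9a (of psmb6), were listed at 0 in both wild-type libraries. In mutants psmb8a was at 6.26 and 7.69, and psmb9a was at 0 in replicate 1 and 5.13 in replicate 2. The value of psmb8a was shared with 129 other genes in mutant replicate 1 and 89 in replicate 2, and the one value of psmb9a with 95, so these too are quotients of small integers. No fold is given against values of 0. When genes with zeros were kept in the limma fit, psmb8a passed (adjusted p = 0.0228, with 177 genes called of 21392, or 0.827%) and psmb9a did not (adjusted p = 0.721). In that fit the 2 wild-type values of psmb8a are the pseudocount alone, without spread. How far its pass reflects a measured difference therefore cannot be told. In the table as a whole 175 genes (0.818%) were at 0 in both wild-type libraries and above 0 in both mutant ones, and 316 (1.48%) showed the reverse.

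Of the immune-type genes, psmb8a and psmb9a lie in the zebrafish major histocompatibility region on chromosome 19, among genes for antigen loading. The gene psmb12 lies between them, and psmb10 is on chromosome 4. Within 12 protein-coding genes on either side of psmb8a in the RefSeq annotation (assembly GRCz12tu, used for gene order only), 19 genes including psmb8a and psmb9a had a row in the table. The pattern of psmb8a was reversed in tapbp.1, which encodes a tapasin of class I antigen loading, at 0.464 and 0.629 in wild type and 0 in both mutant libraries. It was also reversed in si:ch73-367f21.6, at 1.80 and 0.978 against 0 and 0. The second tapasin gene, tapbp.2, was at 0.721 and 0.489 in wild type and at 0.482 and 0 in mutants, and the class I gene mhc1uba was above 0 in wild-type replicate 2 alone (0.944). On the other side of psmb9a, brd2a (0.648 and 0.708 against 0.607 and 0.756) and the mitochondrial enzyme gene sdha (0.514 and 0.480 against 0.503 and 0.458) had close values in all 4 libraries, while hsd17b8 was at 0.628 and 0.710 against 0.413 and 0.169. Farther out on either side, ccdc127b was at 0.899 and 0 against 0.374 and 0.230, and si:ch73-367f21.4 at 0.988 and 1.07 against 0.566 and 0.174. Both mutant libraries were below both wild-type ones for daxx (0.524 and 0.484 against 0.392 and 0.307) and col11a2 (1.02 and 0.959 against 0.784 and 0.757). They were above them for flot1a (0.391 and 0.451 against 0.488 and 0.475). Thus 3 of the 19 genes were at 0 in both libraries of 1 genotype and above 0 in both of the other, and they did not share a direction. The window was centred on psmb8a, so its own place among the 3 was fixed in advance. That leaves tapbp.1 and si:ch73-367f21.6, both at 0 in mutants. Over all genes, 0.818% had the pattern of psmb8a and 1.48% had the reverse. Whether such genes are more frequent in this region was not tested. Strain and genotype cannot be told apart here, since the labels give AB for wild type alone.

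**Figure D2:**
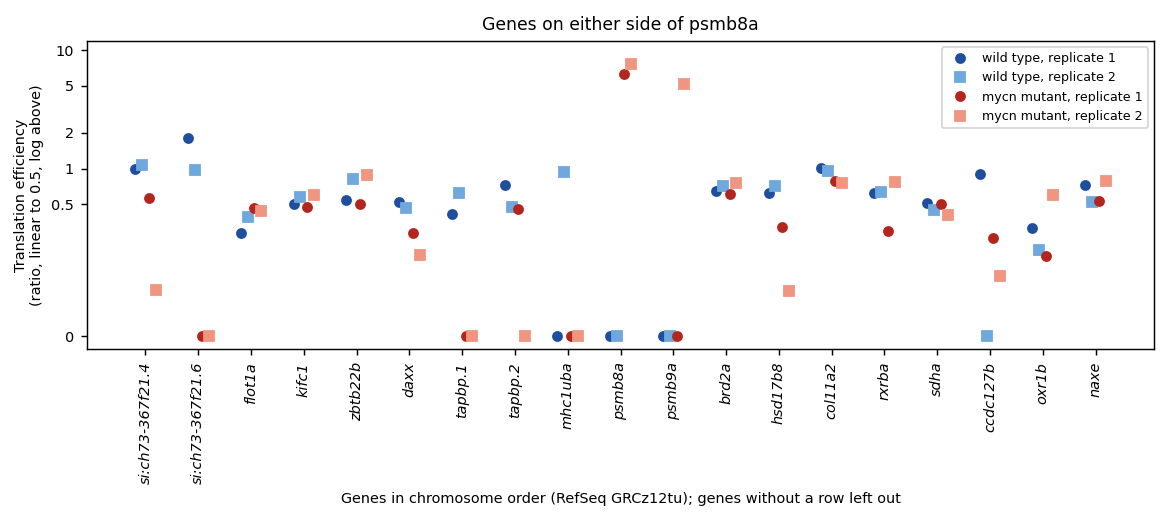
Translation efficiency (ratio, axis linear to 0.5 and logarithmic above) of the 19 genes around psmb8a that had a row in the table, in chromosome order, with 1 point for each of the 4 libraries. The 0 values of psmb8a and psmb9a in wild type stand beside those of tapbp.1 and si:ch73-367f21.6 in mutants. Of the flanking genes, brd2a and sdha have close values in all 4 libraries, while hsd17b8, ccdc127b and si:ch73-367f21.4 vary widely. Both mutant libraries are below wild type for daxx and col11a2 and above it for flot1a.

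In the base, the ATPase genes spanned wild-type means from 0.305 ± 0.0387 (SD, n = 2) for psmc2 to 0.683 ± 0.0736 for psmc3. Translation efficiency of psmc2 was 0.277 and 0.332 in wild type, the 4.83rd percentile of tested genes, and 0.418 and 0.402 in mutants. Both mutant libraries were above both wild-type ones (log2 fold 0.34, SE 0.211, limma adjusted p = 0.603). The highest, psmc3, was at 0.735 and 0.631 against 0.629 and 0.629, just below wild type in mutants. A further 2 ATPase genes were higher in both mutant libraries, psmc1b at 0.395 and 0.353 against 0.512 and 0.397, and psmc4 at 0.598 and 0.543 against 0.604 and 0.719. None of the 7 passed. The base subunits without ATPase activity had no non-overlapping member: the scaffold psmd1 was at 0.470 and 0.521 against 0.501 and 0.460, the steadiest of the 3.

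Chaperones of base assembly, which hold ATPase pairs until the ring closes, included the largest positive fold among the tested members. The gankyrin gene psmd10 was at 0.502 and 0.426 in wild type and at 0.939 and 0.865 in mutants, from the 16.7th to the 59.9th percentile. The log2 fold was 0.83 (SE 0.195), larger than the difference between replicates but not a call (limma adjusted p = 0.330). Its values were repeated in all 4 libraries. Of the other chaperones psmd9 was at 0.448 and 0.531 against 0.522 and 1.04, where mutant replicate 2 alone stood out, and psmd5 was at 0.552 and 0.315 against 0.430 and 0.330.

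Lid subunits, mostly scaffolds around the deubiquitinase Psmd14, lay between 0.266 and 1.17, a wider range than that of the beta ring. The highest was psmd11a, at 0.929 and 0.989 in wild type and 0.909 and 1.17 in mutants, the only member above the library median in all 4 libraries. The lowest was psmd3, at 0.317 and 0.372 against 0.314 and 0.266, with no repeated value and within the lowest 7.06% and 3.74% of tested genes by mean. Both are scaffold subunits of the same family, and their mean ratios in wild type were 0.959 ± 0.0418 and 0.345 ± 0.0384 (SD, n = 2), a spread that leaves out the error of the shared mRNA measurement. The scaffold gene psmd6 was at 0.417 and 0.374 in wild type and 0.471 and 0.618 in mutants (log2 fold 0.37, SE 0.223, limma adjusted p = 0.589). The deubiquitinase gene psmd14 was at 0.588 and 0.514 against 0.650 and 0.595, higher in both mutant libraries by less than 1 SE (log2 fold 0.15, SE 0.192). Its partner psmd7 varied between replicates of both genotypes, at 0.342 and 0.618 against 0.671 and 0.293.

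Several activators and chaperones of core assembly differed more between replicates than between genotypes. The genes psme1 and psme2 encode the paired subunits of an activator that immune signals raise. Translation efficiency of psme1 was 0.361 and 1.47 in wild type and 0.582 and 1.43 in mutants, so replicates of a genotype differed more than genotypes. That of psme2 was 0.885 and 0.801 against 0.379 and 1.40, and both genes had repeated values in all 4 libraries. The nuclear activator gene psme3 was at 0.842 and 0.720 against 0.807 and 1.02. The inhibitor gene psmf1 was at 0.541 and 0.163 against 0.501 and 0.369. Among the chaperones of core assembly psmg1 alone did not overlap, at 0.444 and 0.522 in wild type and 0.389 and 0.334 in mutants (log2 fold -0.34, SE 0.210, limma adjusted p = 0.603). The values of psmg3, another such chaperone, were 1.07 and 0.547 against 0.504 and 1.34. The recombination factor psmc3ip was at 1.15 and 0.389 against 1.02 and 0.416.

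The medians of core, base and psmd genes differed by up to 0.139 within a library, and their order differed between replicates as well as between genotypes. The core, 16 tested psma and psmb genes, had medians of 0.564 and 0.596 in wild type and 0.524 and 0.532 in mutants. The base, 7 psmc genes, was at 0.425 and 0.546 against 0.532 and 0.509. The 15 psmd genes were at 0.552 and 0.521 against 0.580 and 0.600. The psmd genes had the highest median in both mutant libraries. The core had it in both wild-type libraries, but without psmb10 the core was at 0.540 and 0.580, below the psmd genes in replicate 1. The mean of the library medians was 0.580 ± 0.0228 (SD, n = 2) against 0.528 ± 0.00575 for the core, and 0.536 ± 0.0223 against 0.590 ± 0.0139 for the psmd genes. For the base the gap between wild-type replicates was larger than any gap to the mutants. These are descriptions without a test, and without psmb10 the core was at 0.560 ± 0.0281 against 0.530 ± 0.00787.

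In a finer split, the library medians of both rings were lower in mutants, but the median fold of the beta ring was above 0. The 8 tested alpha-ring genes had medians of 0.609 and 0.615 in wild type and 0.547 and 0.560 in mutants, while the beta ring was at 0.532 and 0.502 against 0.494 and 0.466. The 9 lid genes alone were at 0.590 and 0.537 against 0.650 and 0.618. Medians of the genes' own log2 folds were small in each case: -0.13 for the alpha ring, 0.042 for the beta ring, -0.014 for the base and -0.033 for both the lid and the psmd genes, beside 0.013 for all tested genes. For the beta ring, the lid and the psmd genes the median fold thus had the opposite sign to the shift of the library medians. The base did so by the mean of its medians (0.486 in wild type, 0.521 in mutants), though its library medians overlapped between genotypes. For the psmd genes the median fold was between 0.040 and 0.115 in the 4 fits that left out 1 library. For genes without repeated values the medians were 0.16 in the alpha ring and -0.31 in the beta ring, each over 3 genes, so the sign for each ring depended on which members were counted.

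**Figure D3:**
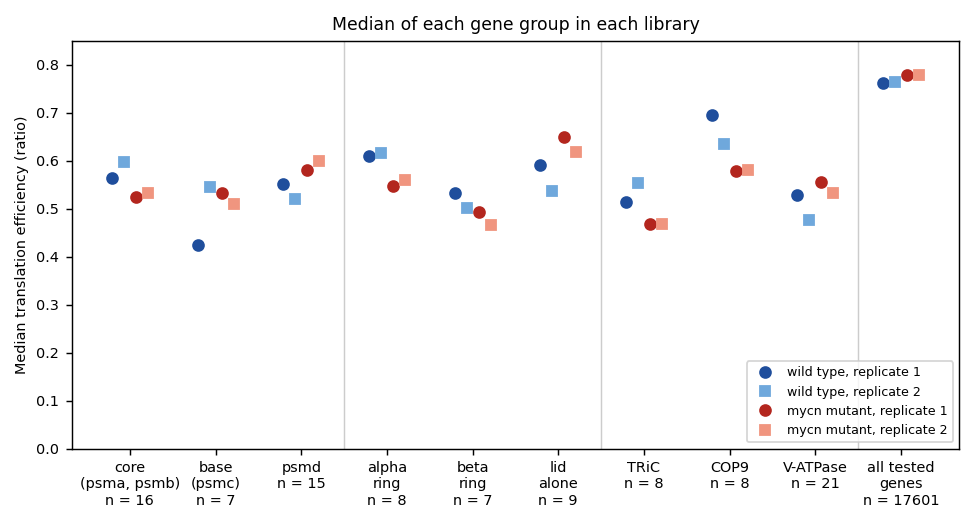
Median translation efficiency (ratio) of each gene group, with 1 point for each of the 4 libraries and n giving the genes tested. The core medians are higher in wild type (0.564 and 0.596) than in mutants (0.524 and 0.532), the psmd medians are higher in mutants, and every group shown lies below the median of all tested genes.

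No proteasome gene passed the test of mutant against wild type. Of 48 tested members 0 had an adjusted p under 0.05 with limma, as did 0% of all 17601 tested genes. Before adjustment 3 members had a p under 0.05, psmb10, psmd10 and psma2, against 11.5% of all tested genes. Of these 1 was higher in mutants, against 6.78% of genes, and 2 were lower, against 4.71%. When fitted among genes without repeated values alone, 36 of 2626 genes (1.37%) passed and 0 of 16 proteasome genes did. The lowest adjusted p among those 16 was 0.192, that of psmb3, followed by 0.197 for psma5 and 0.241 for psmc2, and over the alternatives these 3 ranged up to 0.780, 0.843 and 0.874. Missing the threshold does not show that the ratios were equal, since each gene had 2 residual degrees of freedom.

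By direction, 22 of the 48 members were higher and 26 lower, with log2 folds from -1.22 to 0.83 and a median of -0.027. The genotypes did not overlap in 8 members that were higher in mutants, where 23.1% of all tested genes were, and in 9 that were lower, where 21.6% were. Those higher were psma8, psmb1, psmc1b, psmc2, psmc4, psmd6, psmd10 and psmd14, of which 3 belong to the ATPase ring. Those lower were psma2, psma5, psma6a, psmb3, psmb7, psmb10, psmc3, psmd3 and psmg1, of which 6 belong to the core. Of the 16 tested core genes 2 were higher and 6 lower, and of the 7 ATPase genes 3 were higher and 1 lower. These class counts are small and were not tested. The counts of 8 and 9 over all 48 members are both below the share seen in all genes. Of the 16 members without repeated values, however, 6 were higher without overlap, against 22.7% of all such genes, and 4 were lower, against 29.1%. Over all 48 members the median absolute log2 fold was 0.17, smaller than the 0.30 over all tested genes. The median absolute difference between replicates was 0.20 in wild type and 0.28 in mutants. Among genes without repeated values the order was the other way, with a median absolute log2 fold of 0.20 for the members against 0.16 over all such genes.

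**Figure D4:**
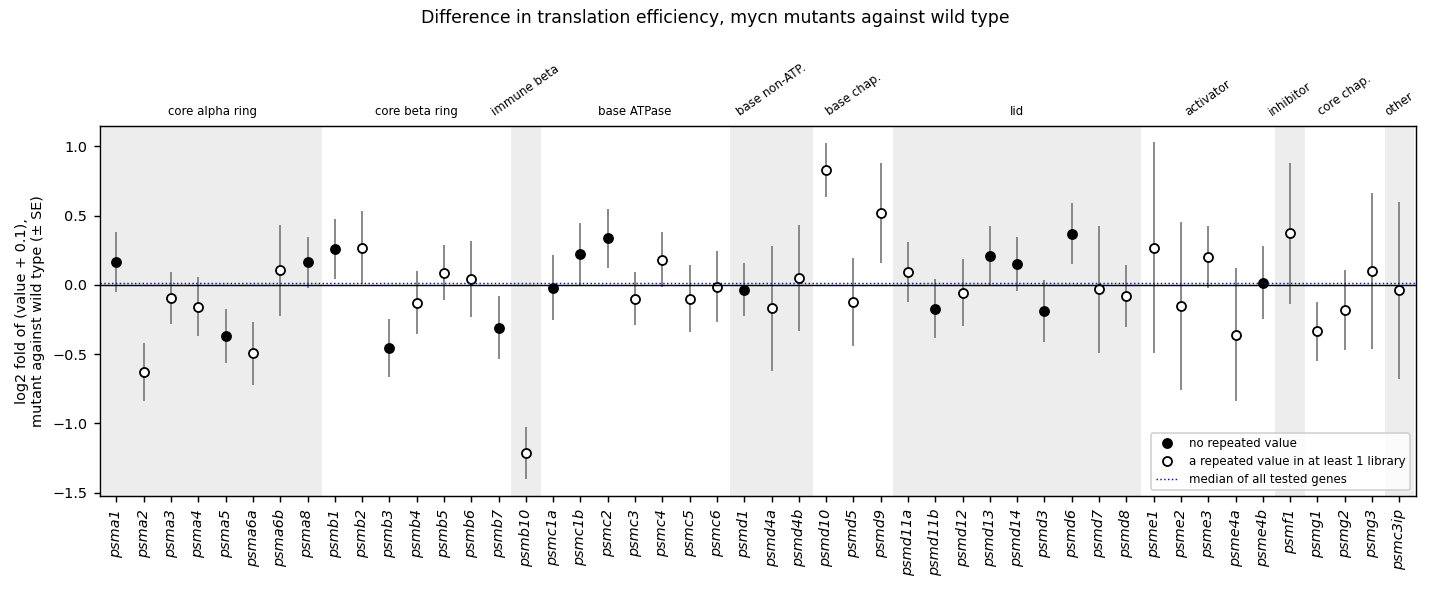
Fitted log2 fold of translation efficiency plus 0.1, mutant against wild type, with its SE for each of the 48 tested proteasome genes by role, filled where no library has a repeated value. The most negative fold is that of psmb10 (-1.22) and the most positive that of psmd10 (0.83), both open points, and 35 of the 48 genes lie within 1 SE of 0.

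Several members are duplicated genes, most of them copies left by the genome duplication of teleost fish, and differences between copies were not tested. Translation efficiency of psma6a was 0.588 and 0.679 in wild type and 0.485 and 0.361 in mutants (log2 fold -0.50, SE 0.227), with no overlap, while psma6b was at 0.750 and 0.521 against 0.878 and 0.524 and overlapped. A more distant copy, psma6l, was at 0.250 and 1.02 in wild type and at 0 and 0.395 in mutants, and was not tested for its 0. The ATPase copy psmc1a was at 0.423 and 0.547 against 0.532 and 0.419 and overlapped, unlike psmc1b above. For the ubiquitin receptor, psmd4a was at 0.330 and 0.716 against 0.577 and 0.310, and psmd4b at 0.646 and 0.287 against 0.460 and 0.453. In wild type the copies were thus ordered one way in replicate 1 and the other way in replicate 2. The lid copy psmd11b was at 0.743 and 0.959 against 0.766 and 0.713, below psmd11a in all 4 libraries. Of the copies of the large activator, psme4a was at 0.414 and 0.389 against 0.501 and 0.154, below psme4b in all 4 libraries, which was at 0.791 and 0.707 against 0.929 and 0.615. The sources used here do not say how reads matching both copies of a pair were counted, so values of single copies are uncertain.

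More of the genes that work with the proteasome were lower than higher in mutants, none past the test. Of 37 symbols listed for ubiquitin, its activating enzyme, shuttle receptors, the Vcp unfoldase, proteasome-bound enzymes and regulators, 31 had a row, and all 31 were tested. The median log2 fold was -0.16: 19 genes were lower in mutants, 12 were higher, and 0 passed in limma after adjustment. Over all 17601 tested genes the median was 0.013, with 8566 lower and 9035 higher. The direction of the list as a whole was not tested. Before adjustment 1 had a p under 0.05, against 11.5% of all tested genes. It was txnl1, a thioredoxin that binds the proteasome, at 0.947 and 0.853 in wild type and 0.617 and 0.514 in mutants (log2 fold -0.59, SE 0.20, adjusted p = 0.413). The next were ube3c, a ubiquitin ligase that acts at the proteasome, at 0.742 and 0.908 against 1.16 and 1.61, and sem1, the smallest lid subunit, at 0.888 and 1.23 against 0.693 and 0.664. Their adjusted p was 0.453 and 0.486. The genotypes did not overlap in 14 of the 31 genes that were lower, against 21.6% of all tested genes, and in 6 that were higher, against 23.1%.

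Those 14 included vcp, the ATPase that extracts ubiquitinated proteins for the proteasome, and all 5 of its listed cofactors, a subset picked out after its values were seen. Translation efficiency of vcp was 0.623 and 0.582 in wild type and 0.531 and 0.507 in mutants, with no repeated value. For its cofactor pair nploc4 and ufd1l the values were 0.478 and 0.377 against 0.321 and 0.325, and 0.644 and 0.524 against 0.454 and 0.452. The adaptors nsfl1c (0.501 and 0.486 against 0.411 and 0.351), faf1 (0.626 and 0.460 against 0.400 and 0.246) and faf2 (0.615 and 0.834 against 0.477 and 0.586) were lower too. Log2 folds of these 6 ran from -0.62 to -0.18 with a median of -0.31, and none passed (adjusted p from 0.525 to 0.747). Among other steps, the core assembly factor pomp was at 0.931 and 0.842 against 1.12 and 0.879. The receptor adrm1 was at 0.603 and 0.472 against 0.431 and 0.314. The transcription factor gene nfe2l1b, whose mammalian counterpart induces proteasome genes, was at 1.40 and 1.03 against 0.983 and 0.945. Its copy nfe2l1a went the other way with overlapping genotypes (log2 fold 0.32, SE 0.530), and had repeated values in all 4 libraries. The polyubiquitin genes ubb (0.331 and 0.327 against 0.434 and 0.379) and ubc (0.372 and 0.376 against 0.389 and 0.439) were low in every library. Both were higher in both mutant libraries, as were ube3c, uchl5, zfand5a and rps27a, the other pathway genes higher without overlap.

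**Figure D5:**
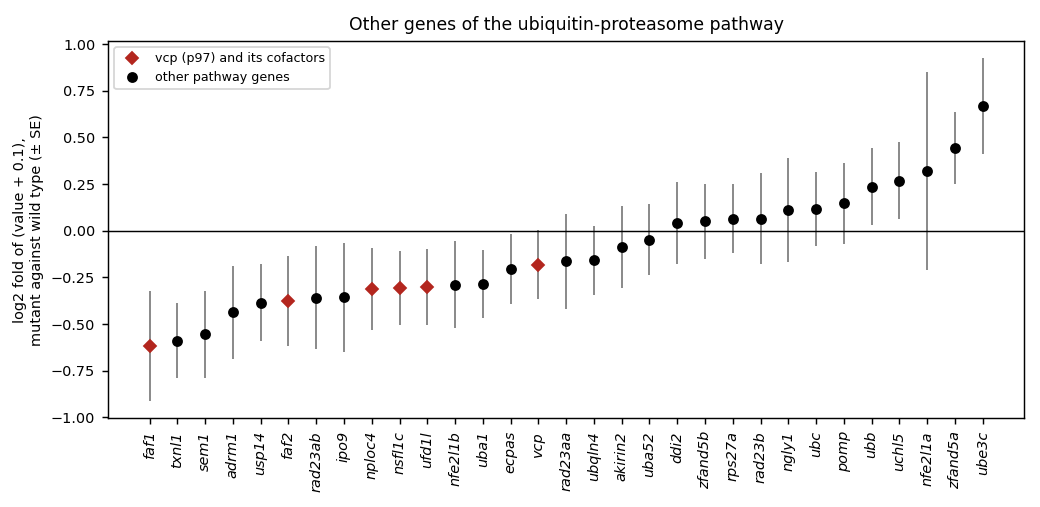
Fitted log2 fold of translation efficiency plus 0.1, mutant against wild type, with its SE for the 31 other genes of the ubiquitin-proteasome pathway, ordered by fold. Diamonds mark vcp and its 5 cofactors, all below 0, from -0.62 to -0.18.

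Among other large complexes, the chaperonin TRiC and the vacuolar ATPase gave similar medians, while the COP9 signalosome had higher ones. The 8 chaperonin TRiC genes, whose product folds cytosolic proteins, had medians of 0.514 and 0.553 in wild type and 0.469 and 0.467 in mutants, and all 8 were below the library median in all 4 libraries. The COP9 signalosome, a relative of the lid that removes the ubiquitin-like Nedd8, was at 0.695 and 0.636 against 0.578 and 0.580 over 8 genes. Of these 8 genes 4 were below the library median in all 4 libraries. Each of the 8 had a negative log2 fold, as did 8566 of all 17601 tested genes. Only 2 of the 8 were lower without overlap, against 21.6% of all tested genes. The 21 genes of the vacuolar ATPase were at 0.529 and 0.475 against 0.555 and 0.532. The proteasome medians of 0.536 to 0.549 lay between those of TRiC and of the COP9 signalosome in 3 libraries, and in wild-type replicate 2 just below that of TRiC. The SD of log2(value + 0.1) in a library was 0.23 to 0.35 for TRiC, 0.36 to 0.51 for COP9 and 0.38 to 0.48 for the vacuolar ATPase. For the proteasome genes it was 0.34 to 0.55. No test of these differences was made, and neither low ratios nor a narrow band are particular to the proteasome in these values.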

How the data were processed

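Wild-type and mycn mutant zebrafish embryos (72 h) had 2 Ribo-seq samples each and 1 RNA-seq sample each. The deposited table gives the ratio of footprints to mRNA, derived from FPKM values per the file headers; the sources used here do not say how. STAR, featureCounts, limma and the build GRCz11 were used per the submitters' processing notes, without versions or roles. Depth is unknown, so no counting interval is given.

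Genes at 0 in any library (3791 of 21392) were left out. For the other 17601, log2(value + 0.1) was fitted in limma 3.58.1 (R 4.3.3), using moderated variances with a trend, two-sided tests and Benjamini-Hochberg adjustment over all tested genes at a threshold of 0.05. Fold changes on this scale understate those of low ratios. The fit was tested on simulated data with independent noise in each library. That simulation held neither an mRNA error shared within a genotype nor quotients of small integers, so it does not cover those limits. Alternatives were pseudocounts of 1 and 0.01, no filter, genes without repeated values, quantile normalization, median centring, no trend, each library left out, and the replicate number as a block.

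Members, gene lists and tests were chosen with earlier results of these data known. Named were the highest and lowest member of each class in wild type, the 8 members with the smallest p, duplicated genes, members at 0, and 3 pathway genes with the smallest p; others were named after their values were seen. In the RefSeq gene table (GRCz12tu) 50 of 51 member symbols matched. Protein and promoter sequences were not used here.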

Additional observations from a re-analysis of the deposited data

How the results depend on the processing

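The results are limited by 2 libraries a genotype, an mRNA measurement that appears shared within each genotype, and unknown depth. All genes past the threshold numbered 0 as reported, 6 with a pseudocount of 1, 177 with zeros kept and 36 of 2626 without repeated values; 0 passed in the other alternatives and in each fit that left out 1 library. Proteasome genes past it numbered 0, or 1 with zeros kept (psmb8a, whose wild-type values are then the pseudocount alone). The 32 members below the median of every library were 13 of 16 without repeated values and 32 to 34 with 1 library left out. The median log2 fold of all members (-0.027) was -0.0096 with a pseudocount of 1, 0.083 without repeated values, -0.053 after median centring and -0.040 to 0.042 with 1 library left out, positive without wild-type replicate 1 or mutant replicate 2. Their wild-type median (0.544) was 0.499 without repeated values, 0.549 after median centring and 0.540 to 0.547 with 1 library left out. The core median fold (-0.11) was -0.047 with a pseudocount of 1, -0.073 without repeated values and -0.22 to -0.094 with 1 library left out. Without repeated values the base and psmd median folds were 0.22 and 0.057, and the wild-type medians 0.532 (core), 0.374 (base) and 0.5096 (psmd), over 6, 3 and 6 genes. With 1 library left out the base fold was -0.0045 to 0.13 and the psmd fold 0.040 to 0.115. Of the 37 named genes tested, these turned sign when 1 library was left out, with ranges of -0.22 to 0.43 (psma6b), -0.18 to 0.13 (psmc1a), -0.72 to 0.63 (psmc3ip), -0.070 to 0.26 (psmd11a), -0.63 to 0.29 (psmd4a), -0.42 to 0.52 (psmd4b), -0.45 to 0.20 (psmd5), -0.62 to 1.15 (psme1), -0.98 to 0.26 (psme4a), -0.25 to 0.28 (psme4b), -0.27 to 1.01 (psmf1) and -0.53 to 0.73 (psmg3). The fold of psme4b (0.017) was -0.0027 after quantile normalization and -0.0089 after median centring. The cause of these shifts was not tested. Whether replicate numbers pair the samples is not known. The correlation of deviations between replicates of the same number was 0.0097 over all tested genes. Over the 2626 genes without repeated values it was 0.0247. Most values over all tested genes are taken as quotients of small integers, and each genotype has only 2 libraries. Neither correlation can therefore exclude pairing. With the replicate block 0 genes and 0 members passed in limma, with 2 members under an unadjusted p of 0.05.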
